A study of Mus musculus with 8 samples.

Results

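The genes described here are 8 markers of classical brown fat, Otop1, Kng2, Cpn2, Slc27a2, Acot11, S100b, Lhx8 and Zic1, taken from the 21000 mouse genes with a curated RefSeq mRNA. Their accessible sites are the ATAC-seq peak summits inside a member gene or no more than 50 kb from one of its transcription start sites (TSSs), on the mouse genome build mm10. By this rule 23 of the 32173 summits in the authors' deposited list belonged to them, and the rule used position only, not the height of a peak. The names were collected with earlier results of these data known, so that the counts below describe these genes and are given beside the same count over all genes, with no test.

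ATAC-seq reads chromatin accessibility with the Tn5 transposase, which cuts and tags DNA that is free of nucleosomes. Nuclei were taken from the brown adipose tissue (BAT) of 4 mice, 2 WT and 2 Dot1L-BKO, kept on chow to 12 weeks of age and then placed at 4°C for 4 hr. Dot1L-BKO mice carry floxed Dot1l alleles and a Ucp1-Cre transgene, and so lose the histone methyltransferase Dot1l in cells in which the Ucp1 promoter is active, whereas the WT mice carry the floxed alleles without loss of the gene. The RNA-seq libraries of the study, 2 per genotype, were not analysed here. Whole BAT also holds endothelial, immune, progenitor and nerve-associated cells, in which Ucp1-Cre is not active. In such a bulk sample, fewer nuclei of a cell type and less open chromatin in each nucleus cannot be told apart.

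The list gave 1 position per peak and the −log10 of the q-value from the peak caller MACS2, called the score here. It was a single list over the 4 libraries and held no value for any one mouse. Read depth was therefore unknown and values carry no replicate error. No comparison of Dot1L-BKO with WT mice was possible at these genes, and the deletion of Dot1l could not be checked. Scores were used to rank summits within the list. Whether the Dot1L-BKO libraries served as the peak caller's control is not known here, and a score would then compare WT with Dot1L-BKO reads, so that ranks below are ranks of scores and not of how open a site was. Over all 32173 summits the lowest score was 1.31, the median 5.0 and the highest 13426, and many summits shared a value, since only 2606 distinct scores occurred.

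Brown adipocytes burn fatty acids to make heat through the mitochondrial protein Ucp1, and classical brown fat arises in the embryo from a lineage near that of skeletal muscle. Beige adipocytes, which appear in white depots in the cold, share the heat-producing program, so genes such as Zic1 and Lhx8 have been used to tell the classical brown depot from beige and white fat. The members differ widely in what they encode. Otop1 is an otopetrin, a proton channel. Slc27a2 and Acot11 act on fatty acids, the first as a very long-chain acyl-CoA synthetase of the fatty acid transport protein family and the second as an acyl-CoA thioesterase first described in brown fat. Kng2 encodes a kininogen, a secreted precursor of kinins, and Cpn2 the regulatory subunit of carboxypeptidase N, the plasma enzyme that trims kinins. S100b is a calcium-binding protein also known as a marker of glia and Schwann cells, and Lhx8 and Zic1 are transcription factors of the LIM homeobox and zinc finger classes.

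The 4 members with a summit within 1 kb of a TSS are shown first by sequence, because these windows are the promoter sites of the set. Each is 201 bases long and centred on the summit, read 5′ to 3′ in the direction of the gene from GRCm38, the assembly that mm10 names. Capitals mark matches to the short motifs searched for, which are spelled out further on. In the Otop1 window no match was found, the Slc27a2 window held a GC box on each strand, the Kng2 window held a C/EBP match and the Acot11 window an NFI half-site.
Otop1 promoter summit, chr5:38278230-38278430, plus strand: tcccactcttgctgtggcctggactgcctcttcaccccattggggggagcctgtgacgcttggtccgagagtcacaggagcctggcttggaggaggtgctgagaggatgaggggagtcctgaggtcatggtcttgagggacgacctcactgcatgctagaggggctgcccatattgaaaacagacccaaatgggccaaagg
Slc27a2 promoter summit, chr2:126552792-126552992, plus strand: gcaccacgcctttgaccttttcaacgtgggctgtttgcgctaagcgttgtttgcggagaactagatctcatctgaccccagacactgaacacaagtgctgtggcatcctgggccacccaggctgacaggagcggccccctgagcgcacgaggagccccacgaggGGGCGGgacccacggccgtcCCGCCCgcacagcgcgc
Kng2 promoter summit, chr16:23029114-23029314, minus strand: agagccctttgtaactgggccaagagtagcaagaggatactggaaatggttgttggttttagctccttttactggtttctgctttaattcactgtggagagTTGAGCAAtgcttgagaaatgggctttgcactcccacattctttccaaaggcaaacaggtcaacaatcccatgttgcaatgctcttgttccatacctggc
Acot11 promoter summit, chr4:106800088-106800288, minus strand: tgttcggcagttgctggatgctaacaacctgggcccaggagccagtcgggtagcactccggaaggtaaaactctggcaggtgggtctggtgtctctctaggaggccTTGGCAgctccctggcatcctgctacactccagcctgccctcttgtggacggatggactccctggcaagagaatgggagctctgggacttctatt

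The next windows are the highest-scoring summits within S100b and Cpn2 and the only summit at Zic1, members without a promoter summit. The S100b window is intronic, and the Cpn2 and Zic1 windows lie in coding exons. Capitals again mark motif matches, an NFI half-site at S100b and a C/EBP match at Zic1, while the Cpn2 window held none.
S100b intron 2 summit, chr10:76258062-76258262, plus strand: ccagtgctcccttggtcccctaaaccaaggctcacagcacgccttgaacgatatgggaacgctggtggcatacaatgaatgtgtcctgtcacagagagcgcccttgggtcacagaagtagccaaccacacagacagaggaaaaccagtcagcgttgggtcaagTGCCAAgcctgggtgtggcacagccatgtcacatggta
Cpn2 exon 2 summit, chr16:30259738-30259938, minus strand: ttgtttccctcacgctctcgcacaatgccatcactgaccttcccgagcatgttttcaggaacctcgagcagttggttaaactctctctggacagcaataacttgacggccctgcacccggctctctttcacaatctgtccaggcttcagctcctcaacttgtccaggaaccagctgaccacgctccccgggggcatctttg
Zic1 exon 2 summit, chr9:91364572-91364772, minus strand: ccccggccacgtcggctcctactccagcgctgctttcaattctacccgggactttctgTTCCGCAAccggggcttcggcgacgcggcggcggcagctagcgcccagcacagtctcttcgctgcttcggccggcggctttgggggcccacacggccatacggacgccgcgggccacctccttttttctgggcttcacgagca

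Promoter summits were found at Otop1, Slc27a2, Kng2 and Acot11 and not at Cpn2, S100b, Lhx8 or Zic1. A summit within 1 kb of a TSS was present at 4 of 8 members (50%), beside 45.2% of all 21000 genes. In 3 of 8 (37.5%) that summit had a score of at least 10, beside 23.5% of all genes. In the wider region of the gene body and 50 kb around a TSS, 7 of 8 members had at least 1 summit, beside 72.6% of all genes. The share of the members with a promoter summit was therefore near that over all genes. The shares with a promoter score of at least 10 and with a regional summit were above those over all genes. With 8 genes each member counts for a large part of its share, and no difference was tested.

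**Figure D1:**
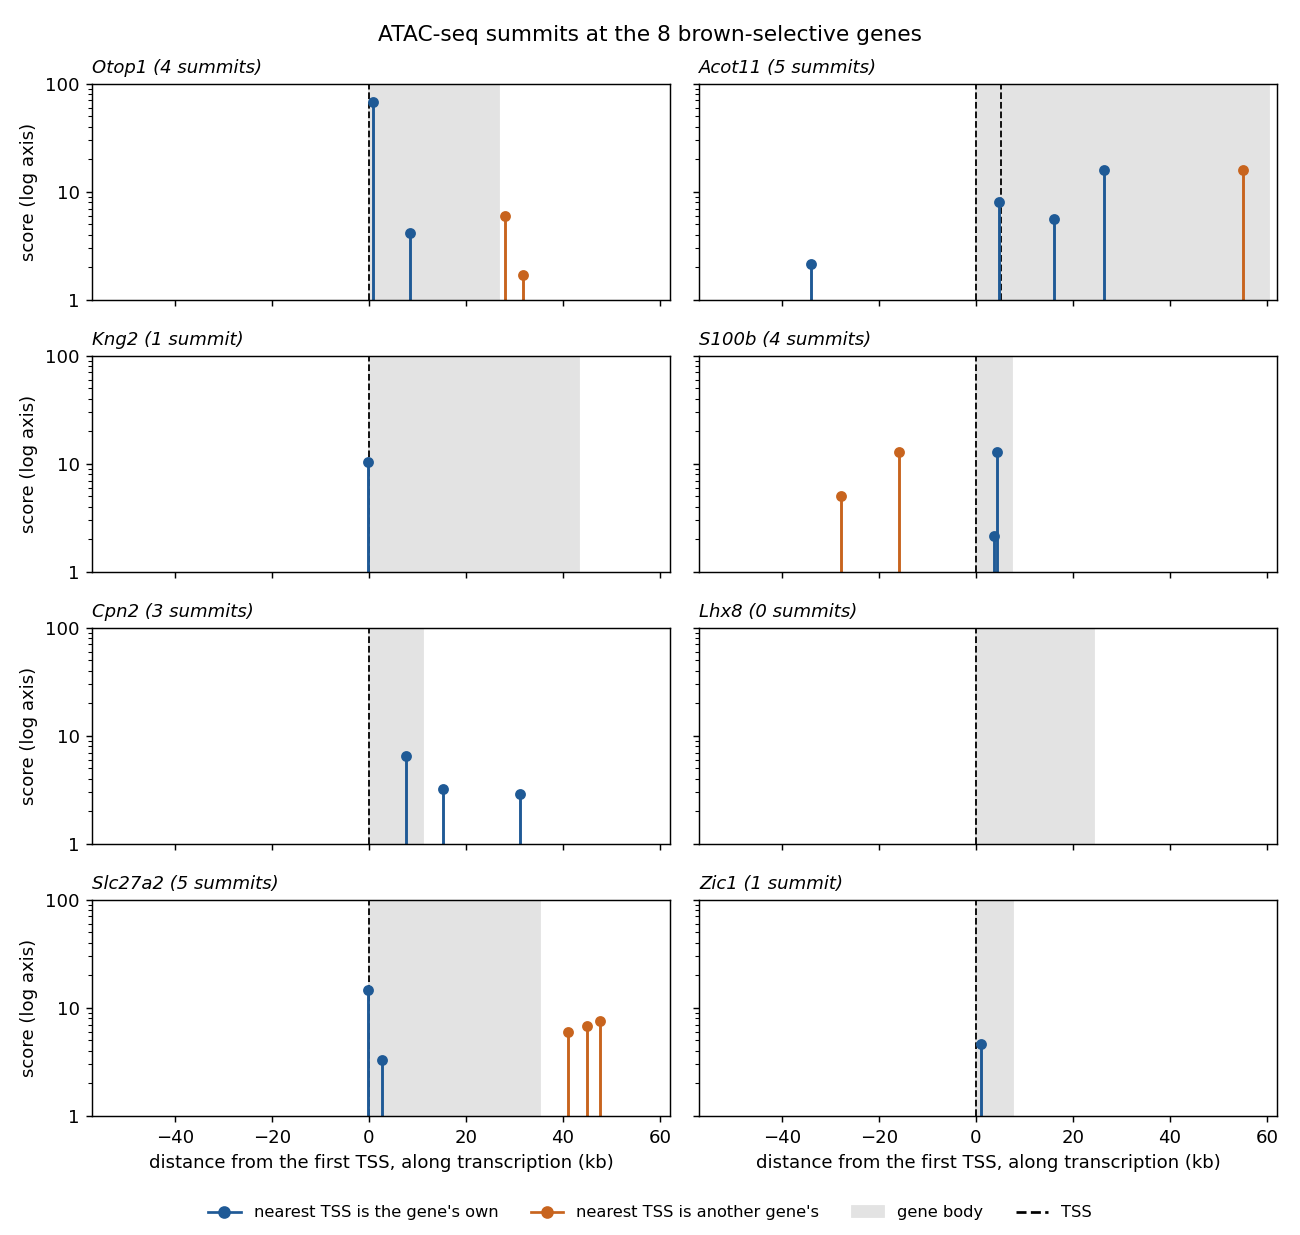
Score of every summit (log axis) against its distance in kb from the first TSS of the gene, along the direction of transcription, for the 8 brown-selective genes, with the gene body shaded and each TSS dashed. Otop1 has a summit of score 67.7 beside its TSS, the highest of the 23, and Lhx8 has none; summits whose nearest TSS is another gene's are drawn in orange.

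The highest-scoring summit of the set was at Otop1. The gene covers chr5:38277404-38304217 on the plus strand, 26.8 kb with 7 exons, and 4 summits were assigned to it. Its promoter summit lay 926 bp downstream of the TSS, at 38278330 in intron 1, with a score of 67.7. That score was 172nd of the 9485 genes with a promoter summit, when each gene was given its highest one, and 210th of all 32173 summits. No other summit in the list had the same score. The 926 bp place this summit just inside the 1 kb limit, and with a limit of 500 bp Otop1 would not count as having a promoter summit. The next 2 by score were a summit of 6.02 in the intergenic DNA 28.1 kb downstream of the TSS and a summit of 4.16 in intron 1, 8.53 kb downstream. The remaining summit scored 1.71. Of the 4, the pair beyond the 3′ end of Otop1 lay closer to the TSS of Drd5, a dopamine receptor gene, at 14.1 and 10.4 kb. The pair in intron 1 was closest to the TSS of Otop1 itself. Over all genes, 66.7% had fewer summits than Otop1, 6.02% had the same number and 27.2% had more.

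The genes of fatty acid activation and hydrolysis, Slc27a2 and Acot11, had the most summits of the set, 5 each. Of all genes, 72.8% had fewer and 23.0% had more. Slc27a2 (chr2:126553024-126588243, plus strand, 35.2 kb, 10 exons) had its highest summit at its promoter, 132 bp upstream of the TSS at 126552892, with a score of 14.7. This was 3446th of 9485 genes by promoter score. The following 2 by score, 7.58 and 6.74, lay 47.7 and 44.9 kb downstream of the Slc27a2 TSS, in intron 9 and in coding exon 10 of Hdc, the gene for histidine decarboxylase. The other 2 scored 3.32 and 6.02, in intron 1 of Slc27a2 and in the last exon of Hdc. All 3 summits inside Hdc were nearer to the Hdc TSS than to any other, at 17.9 to 24.6 kb, so 2 of the 5 were nearest to the TSS of Slc27a2.

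At Acot11 the highest scores were inside the gene and not at its promoter. The gene (chr4:106744555-106805007, minus strand, 60.5 kb, 16 exons) has curated start sites at 106805007 and 106799831. The promoter summit at 106800188 lay 357 bp upstream of the second of these, in intron 1 of the mRNA that starts at the first, with a score of 8.12. This was 5752nd of 9485 genes by promoter score. A pair of summits had the same score of 16.0, a value that 131 summits of the list shared. The first lay in intron 1, 21.2 kb downstream of the nearer TSS, and the second in intron 14, 49.95 kb downstream. The other 2 summits scored 5.61, in intron 1, and 2.15, in intergenic DNA 34.0 kb upstream. The summit in intron 14 was the only one of the 5 whose nearest TSS was another gene's, Fam151a at 16.0 kb. It is the member summit closest to the 50 kb limit of the rule and lies in the gene body as well. The nearest summits just beyond that limit were at 57.1 kb from the Otop1 TSS, with a score of 9.78, and at 57.6 kb from the S100b TSS, with a score of 3.41.

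Kng2 and Cpn2, the genes of the kinin system, differed in where their summits lay. Kng2 (chr16:22985852-23029101, minus strand, 43.2 kb, 11 exons) had a single summit, and this one was at the promoter, 113 bp upstream of the TSS at 23029214. Its score of 10.4 was 4765th of 9485 genes, close to the median of 10.7 over all genes with a promoter summit. No summit was found within the gene body. Kng1, the neighbouring kininogen gene with a TSS 29.2 kb away, had no promoter summit. Cpn2 (chr16:30256378-30267532, minus strand, 11.2 kb, 2 exons) had 3 summits and none within 1 kb of its TSS. The highest, 6.53, was at 30259838 in its coding exon 2, 7.69 kb downstream of the TSS. The others, 3.20 and 2.92, lay 15.4 and 31.1 kb downstream of the TSS, the first of them within the noncoding RNA gene Gm33330. All 3 were closer to the Cpn2 TSS than to that of another gene with a curated mRNA, and neither Gp5 nor Lrrc15, whose TSSs lie within 50 kb, had a promoter summit.

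S100b had no promoter summit and had summits inside the gene. It is short (chr10:76253836-76261319, plus strand, 7.48 kb, 3 exons), and 2 of its 4 summits were in intron 2, with scores of 12.8 at 76258162 and 2.15 at 76257496, 4.33 and 3.66 kb downstream of the TSS. The other 2 belonged by position to the neighbouring Prmt2, which encodes a protein arginine methyltransferase. One scored 12.8, 15.9 kb upstream of S100b and 74 bp from the TSS of Prmt2, and the other scored 5.07, in intron 3 of Prmt2. The equal scores of 12.8 were shared by 197 summits of the list and give the intron 2 site the same rank as the Prmt2 promoter. Since S100b is also made by glia and Schwann cells, neural and glial markers were counted. Of 8 such genes 1 had a promoter summit, Mbp, a myelin gene, at 3.75, beside 45.2% of all genes. In the wider region 6 of the 8 had a summit, near the 72.6% of all genes, with highest scores per gene from 2.15 to 14.4. The top value, 14.4, was at Sox10, a glial transcription factor gene with 9 summits. The neuronal genes Snap25 at 14.2 and Syp at 14.0 were, like Sox10, above the 12.8 of S100b. Gfap at 11.5, Mbp at 10.9 and Rbfox3 at 2.15 were below it, and Olig2 and Neurod1 had no summit. Apart from Mbp, these genes are named here after their values were seen. The part of glia and Schwann cells in the S100b summits was not tested.

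The transcription factor genes had 1 summit at Zic1, as at Kng2, and 0 at Lhx8. The Zic1 summit (gene at chr9:91358058-91365768, minus strand, 7.71 kb, 4 exons) was at 91364672, with a score of 4.61. It lay in coding exon 2 of the mRNA with 4 exons and in exon 1 of another with 3, 1096 bp downstream of the TSS, just outside the 1 kb limit, and 27.4% of all genes had fewer summits while 54.2% had more. Zic4, whose curated TSS is 3.20 kb from that of Zic1, had no promoter summit, although a predicted Zic4 mRNA starts 959 bp from the Zic1 summit. At Lhx8 (chr3:154306288-154330560, minus strand, 24.3 kb, 9 exons) no summit was found inside the gene, within 50 kb or within 100 kb of the TSS. The nearest summit was 111 kb upstream, with a score of 2.92. Of all genes, 27.4% likewise had 0 summits in their region. A gene without a summit is one at which no peak passed the peak caller's cutoffs in this list, and with depth unknown it cannot be said how weak a site would have been missed. If the Dot1L-BKO libraries were the control, an open site that is alike in both genotypes could be missing as well.

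**Figure D2:**
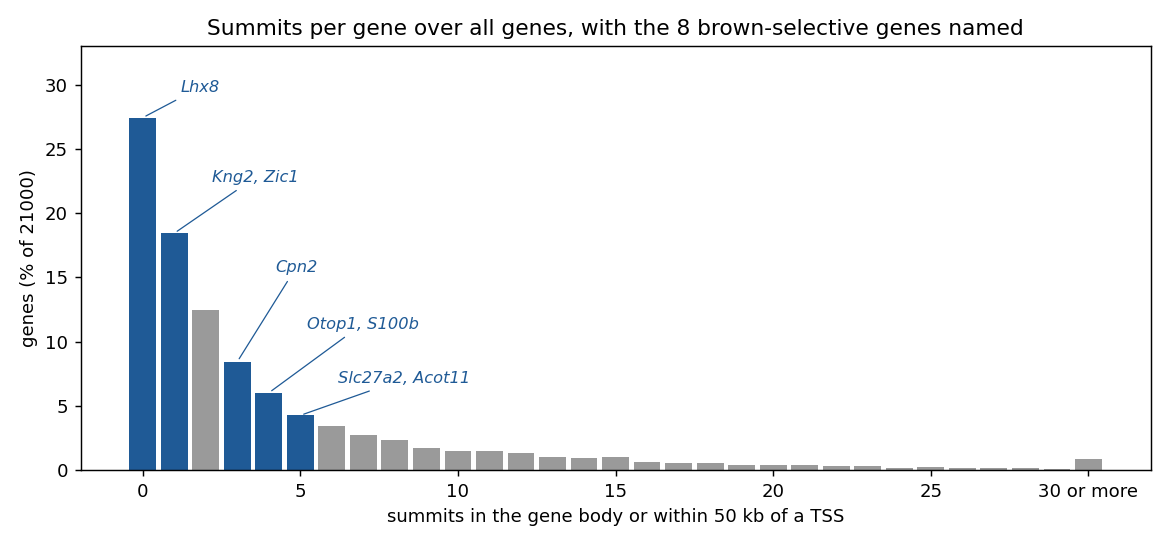
Share of the 21000 genes (%) by their number of summits inside the gene or up to 50 kb from a TSS, with the bars that hold brown-selective genes in blue and named. The members run from 0 at Lhx8 to 5 at Slc27a2 and Acot11, beside a median of 2 over all genes.

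Per gene, the members had a median of 3.5 summits, beside 2 over all genes, for which the middle range ran from 0 to 5 and the highest count was 92. Scaled to the length of the region, the medians were 3.50 and 1.66 summits per 100 kb. Neighbouring genes contributed to these counts, as the same rule allows in the counts over all genes, for which no such split is given here. Of the 23 summits, 15 were nearest to the TSS of the member itself and 8 to that of another gene, namely Hdc at Slc27a2, Drd5 at Otop1, Prmt2 at S100b and Fam151a at Acot11. Of 7 other genes with a TSS in a member's region, Prmt2 alone had a promoter summit.

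Most of the summits were away from promoters. Of the 23 summits, 5 lay within 1 kb of any TSS (21.7%, 95% Wilson interval 9.66 to 41.9, counting error only), beside 32.2% of all summits. They were the promoter summits of the 4 members and that of Prmt2. The median distance to the nearest TSS of any gene was 10.4 kb, beside 5.67 kb over the list. Within a protein-coding gene lay 15 summits (65.2%), beside 62.7% of all.

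The scores of the set ran from 1.71 at Otop1 to 67.7, also at Otop1, with a median of 6.02, beside 5.0 over the list. The 23 summits come from 7 loci of 1 pooled list and are not independent replicates. A score of at least 10 was reached by 7 summits (30.4%), beside 23.5% of the list. These were the promoter summits of Otop1, Slc27a2 and Kng2, the pair within Acot11, the intron 2 summit of S100b and the Prmt2 promoter. Among the 18 summits over 1 kb from any TSS the median was 5.34, beside 4.16 over all such summits. Apart from the 67.7 at Otop1, no member summit scored above 16.0.

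**Figure D3:**
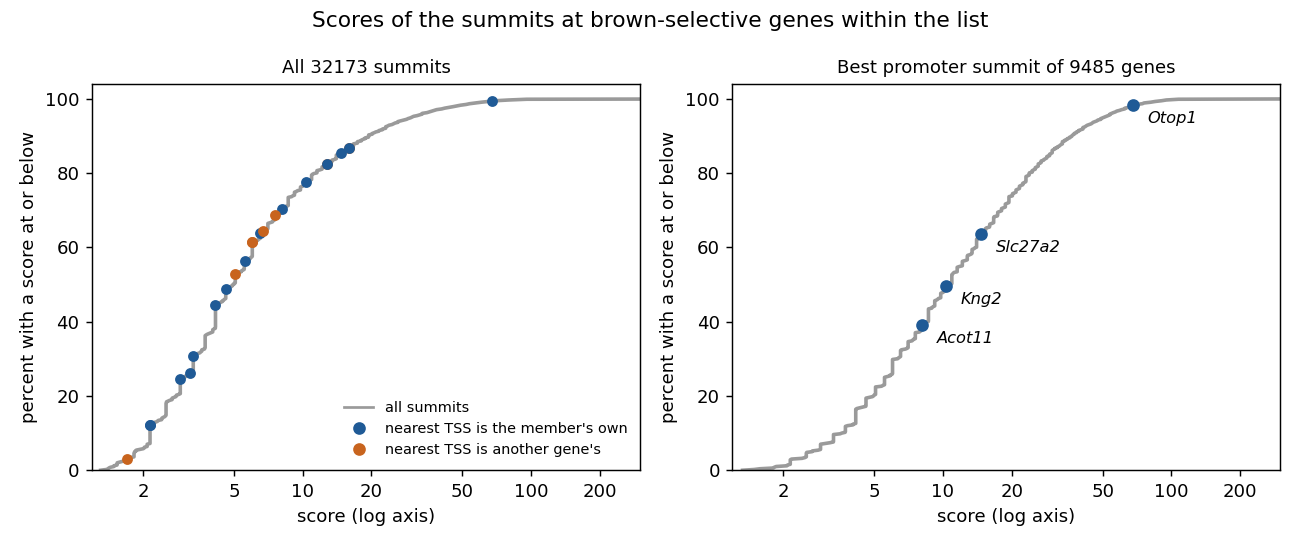
Percent of summits (left, all 32173) and of genes by their best promoter summit (right, 9485 genes) with a score at or below the value on the log x axis, grey, with the 23 member summits and the 4 members' promoter summits as points on the curve. Otop1 at 67.7 lies near the top of both curves, and Slc27a2, Kng2 and Acot11 lie between 8.12 and 14.7 in the middle of the promoter curve.

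The promoters of the members also differed in base composition. In the RefSeq promoter sequences of GRCm38, which run from 250 bases before to 50 after a start, all 8 members were matched, and the median GC content over 32851 promoters was 52.7% with 7 CpG dinucleotides. The Otop1 promoter had 71.7% GC and 18 CpG, and that of Slc27a2 65.3% and 25 CpG. Both had a promoter summit, as did Acot11, with 66.0% and 20 CpG at its first start and 64.7% and 9 CpG at the second, the one beside its summit. Kng2, which had one too, was at the other end with 45.3% GC and 2 CpG, and its summit window held 0 CpG. The promoter summit windows of Otop1, Acot11 and Slc27a2 held 3, 4 and 16 CpG, beside a median of 14 over all summits within 1 kb of a TSS. The summits of Otop1 and Acot11 lay outside the 300 bases of the RefSeq promoters. Of the members without a promoter summit, Zic1 had 65.3% GC and 31 CpG, the most of the set. S100b had 53.7% and 3 CpG, Cpn2 47.7% and 4 CpG, and Lhx8 47.0% and 4 CpG. Members with and without a promoter summit thus overlapped in both measures.

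Sequence patterns were searched for on both strands within 100 bp of each summit, with N for any base. The 11 motifs were C/EBP as TTGCNNAA, AP-1 as TGANTCA, CRE as TGACGTCA, ERR as TCAAGGTCA, NFI half-site as TTGGCA, ETS as CCGGAAGT, GC box as GGGCGG, E-box as CACGTG, homeobox core as TAATTA, EBF as TCCCNNGGGA and DR1 as AGGNCANAGGNCA. No motif lies wholly within another, while ERR and DR1 share the half-site AGGTCA. A match to any of them was found in 14 of the 23 windows (60.9%), beside 48.3% of all summits and 64.7% of the 32851 RefSeq promoters, which are longer at 300 bases. A match is a run of letters and not a bound site.

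C/EBP factors drive adipocyte differentiation, and their motif was found in 3 windows (13.0%), beside 10.9% of all summits. In the Kng2 promoter window the match TTGAGCAA was centred 4.5 bp from the summit. The other matches were TTCCGCAA at Zic1 and TTGTGCAA in the Hdc intron assigned to Slc27a2. DR1, the kind of element that PPAR and RXR bind, was matched at 1 summit (4.35%), beside 0.550% of all. That window was in intron 1 of Slc27a2, with a score of 3.32, and is named here after its values were seen. The match read TGCCCTCTGACCT on the gene's strand.

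The GC box was the most frequent pattern, in 6 windows (26.1%), beside 20.6% of all summits and, of those within and over 1 kb from a TSS, 45.0% and 9.07%. It occurred at the promoters of Slc27a2 and Prmt2, in introns 1 and 14 of Acot11, upstream of Acot11 and downstream of Cpn2. The NFI half-site was found in 3 windows (13.0%, beside 10.9%), at Acot11, S100b and within Hdc. AP-1, the E-box and the homeobox core had 1 match each, the first 2 in the same intron 1 window of Acot11 and the last downstream of Cpn2. CRE, ERR, ETS and EBF letters were in none of the 23 windows, beside 1.03%, 0.454%, 1.84% and 1.33% of all summits. All 4 windows assigned to Otop1 held none of the 11 patterns.

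**Figure D4:**
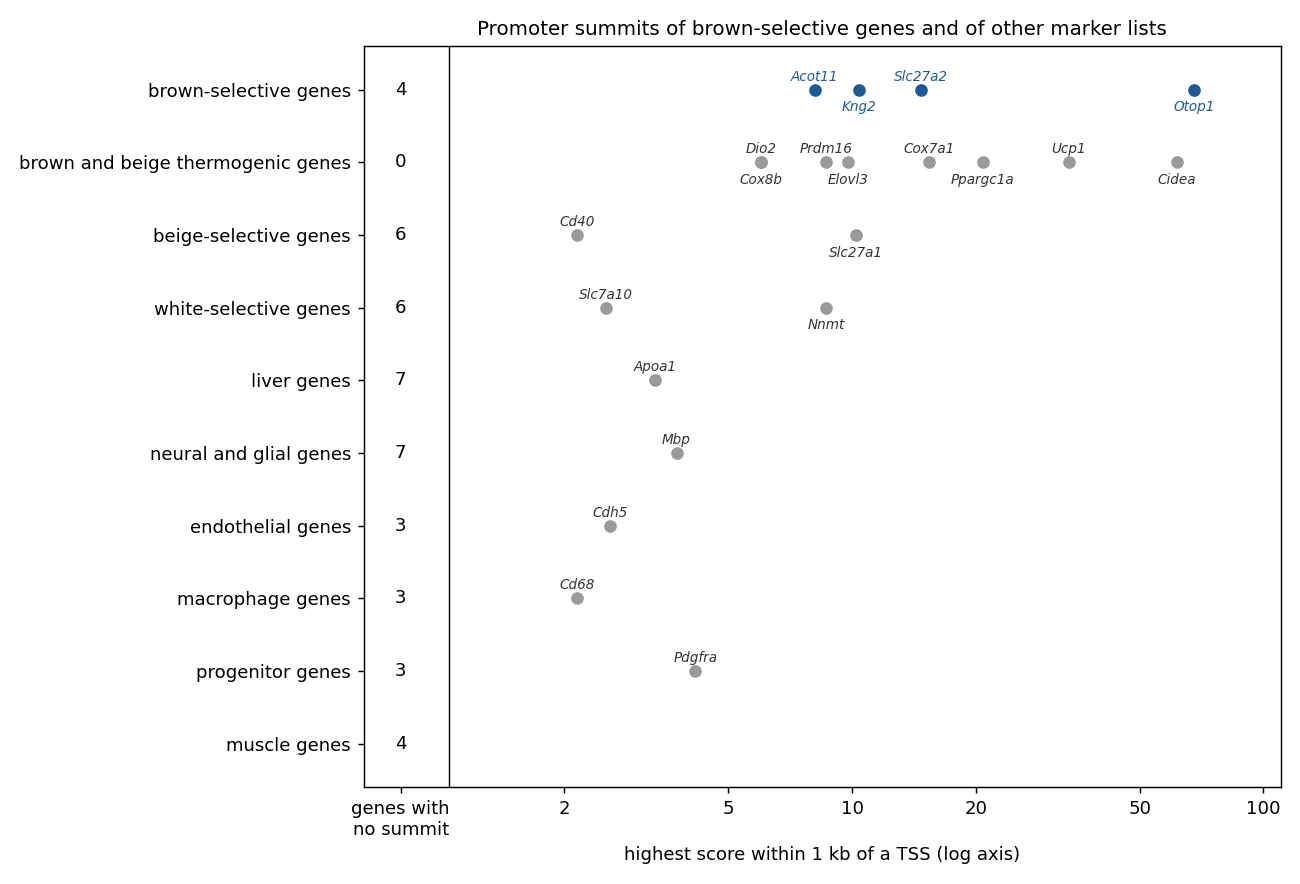
Highest score of a summit within 1 kb of a TSS (log axis) for each gene of the brown-selective set, in blue, and of 9 other marker lists, in grey, with the number of genes without such a summit at the left. All 8 thermogenic genes have a promoter summit, whereas 4 of 8 brown-selective and 2 of 8 beige-selective genes do.

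Promoter summits were also counted in other marker lists, to be read beside the 45.2% of all genes with one, a share that the 4 of 8 members were near. Of 8 thermogenic genes that brown and beige fat share, all 8 had a promoter summit and 4 had a score of at least 10, with a median of 13 summits per gene. Their highest promoter scores were 61.5 at Cidea, a lipid droplet protein gene, 33.7 at Ucp1 and 20.8 at Ppargc1a, a coactivator of mitochondrial genes. The promoter score of Otop1 was above each of these. Of 8 beige-selective genes 2 had a promoter summit, Slc27a1 at 10.2 and Cd40 at 2.15, and of 8 white-selective genes 2, Nnmt at 8.65 and Slc7a10 at 2.53. The median summits per gene were 2 and 1.5 in these lists, beside 3.5 for the members. No difference between lists was tested, since genes are not replicates and the list was one sample.

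Markers of other cells in the tissue were also counted, with liver and muscle genes for comparison. Of 8 liver genes 1 had a promoter summit, Apoa1 at 3.32. Of 4 genes each, 1 endothelial gene (Cdh5 at 2.59), 1 macrophage gene (Cd68 at 2.15), 1 progenitor gene (Pdgfra at 4.16) and 0 muscle genes had one. All of these promoter scores were below the 8.12 of Acot11, the lowest promoter score among the members. In the wider region, where 72.6% of all genes had a summit, one was present at 6 of 8 liver, 3 of 4 endothelial, 2 of 4 macrophage, 3 of 4 progenitor and 1 of 4 muscle genes, and the highest regional scores, named after they were seen, were 62.5 at Cd68 and 47.3 at Ahsg, above every member but Otop1. The part of cells other than adipocytes in the member summits was not tested.

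**Figure D5:**
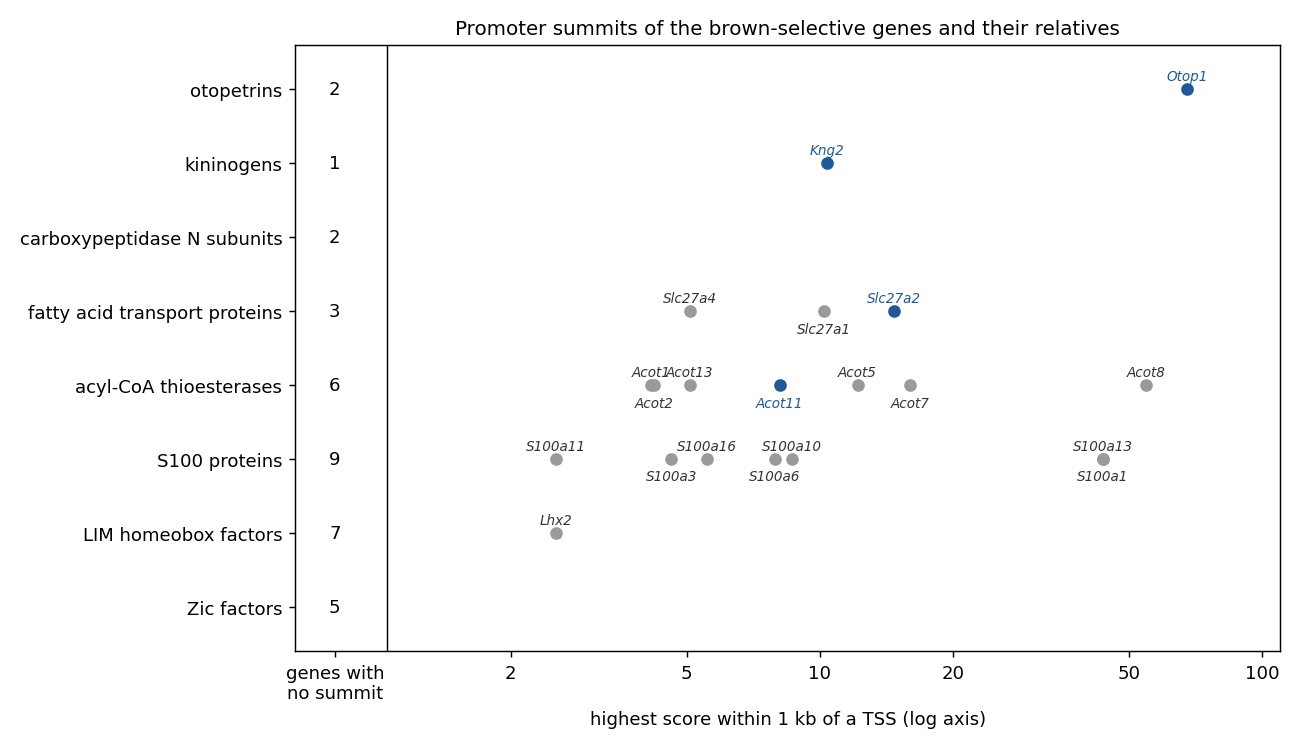
Highest score of a summit within 1 kb of a TSS (log axis) for the members, in blue, and the other genes of their 8 families, in grey, with the number of genes without such a summit at the left. Otop1 and Kng2 are the single genes of their families with a promoter summit, while acyl-CoA thioesterases and S100 genes have several.

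Otop1 and Kng2 were the only genes with a promoter summit in their families, which were set by gene symbol. Neither Otop2 nor Otop3 had a promoter summit, and neither did Kng1. In the wider region the highest scores were 28.8 at Otop2 and 4.61 at Otop3, below the 67.7 of Otop1. Kng1 reached 10.6 there, above the 10.4 of Kng2. Of the 5 other fatty acid transport protein genes 2 had a promoter summit, Slc27a1 at 10.2 and Slc27a4 at 5.07, both below the 14.7 of Slc27a2. By highest regional score, Slc27a5 at 60.5, Slc27a1 at 54.7, Slc27a3 at 49.1 and Slc27a4 at 25.1 were above that 14.7. Slc27a6 had no summit. Among 12 other acyl-CoA thioesterase genes 6 had a promoter summit. Acot8, a peroxisomal thioesterase, scored 54.7, Acot7 scored 16.0 and Acot5 scored 12.2, all above Acot11 at 8.12, and Acot13, Acot2 and Acot1 scored from 4.16 to 5.07.

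The families of the members without a promoter summit differed as well. Of 15 other S100 genes 7 had one, among them S100a1 and S100a13, to which the same score of 43.7 was given, and S100a10, S100a6, S100a16, S100a3 and S100a11 at 2.53 to 8.65. The equal scores of S100a1 and S100a13 may be 1 summit, which would count for both genes in the totals below. Among 7 other LIM homeobox genes 1 had a promoter summit, Lhx2 at 2.53. Cpn1, the catalytic subunit beside Cpn2, had none, and the other 4 Zic genes had none. Over the 8 families 16 of 47 relatives had a promoter summit (34.0%), and 6 of them reached a score of 10, beside 4 of 8 and 3 of 8 among the members and 45.2% and 23.5% of all genes.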

How the data were processed

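Nuclei from BAT of 2 WT and 2 Dot1L-BKO mice were prepared separately with a Nextera kit for ATAC-seq. Per the paper's methods and the submitters' processing notes, the authors used BWA (genome mm10) within Partek Flow, then MACS2 2.1.1 in ATAC mode, keeping peaks with q up to 0.05 and enrichment of at least 2.0. bcl2fastq 2.2 and cutadapt 1.2.1 are also named in those notes. The deposited list gives 1 position per summit and its −log10 q-value. The list is named for WT against Dot1L-BKO libraries. Whether Dot1L-BKO libraries were the MACS2 control is not given in the sources used here, nor is the treatment of duplicate, multi-mapped or mitochondrial reads or of the transposase offset. The paper mentions MACS2 peaks of each sample and a union set made from them, but not how the deposited list was made. If the Dot1L-BKO libraries were the control, sites equally open in both genotypes would score low.

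From the list, summits on chromosomes 1 to 19, X and Y were placed against curated RefSeq mRNAs of GRCm38, with 21000 genes and 25999 TSSs. A promoter summit lay within 1 kb of a TSS. Motifs were matched by letters in windows of 201 bp. The 8 members and all marker lists and families were chosen with earlier results of these data known. Named were all members, with their promoter summit and their 3 highest-scoring summits and the others by range, the genes with the nearest TSS, relatives with a promoter summit, and up to 3 genes of each marker list by promoter score. Outside this rule, neighbouring genes and relatives without a promoter summit are also named, and other genes named after their values were seen are marked as such. No test was made, since the list has no values per library. p-values are not given. A further marker list and the sequence of a further summit are not reported here. Scripts were tested on simulated positions. The alternatives were a score minimum of 2, 5 or 10, merging of summits within 500 bp, predicted mRNAs, windows of 10 and 100 kb, the gene body left out, 50 kb beyond both gene ends, promoter windows of 500 bp and 5 kb, and, chosen after seeing the data, a motif search of 50 bp on each side. The work was done in Python 3.11.15 (matplotlib 3.10.9, numpy 2.4.6, pandas 2.3.3, scipy 1.17.1).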

Additional observations from a re-analysis of the deposited data

How the results depend on the processing

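No paired analysis was possible because 1 pooled score per summit is all that is given, and for the same reason no replicate could be left out. The number of members with a promoter summit was 4, 3 with a score minimum of 10 or a promoter window of 500 bp, and 6 with a window of 5 kb. The 23 member summits became 15 at a score minimum of 5, 7 at a minimum of 10, 13 with a window of 10 kb and 37 with 100 kb. The median score of 6.02 became 14.7 at a minimum of 10, where the share within 1 kb of a TSS was 57.1% in place of 21.7%. The 15 summits nearest to a member's own TSS became 8 at a minimum of 5 and 5 at a minimum of 10. Motif-bearing windows numbered 6 at a minimum of 10, 9 with 10 kb and 8 when 50 bp were searched, beside 14; the motif alternatives were chosen after seeing the data. A minimum score removes summits by construction, and a narrower or wider window removes or adds them. In the other comparisons counts changed by at most 1.5 times, the median score lay between 6.02 and 8.12, and the share within 1 kb of a TSS, or within the promoter window tried, between 17.4% and 39.1%. Depth is unknown, so absent summits may lie under the detection limit of the list. If the Dot1L-BKO libraries were the control, sites equally open in both genotypes may be absent too.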
